A study of Rattus norvegicus with 9 samples.

Results

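Liver gene expression was compared between T2D rats given Cγ + lupanine and T2D control rats. The comparison was made over all transcript clusters of the array that carry exactly 1 gene symbol, 23446 of 68842, which cover 22093 genes. A transcript cluster is the group of probes that reads 1 transcribed region, and its value is a log2 signal, so that a difference of 1 is a 2-fold difference. Cγ is gamma conglutin, a seed protein of the white lupin Lupinus albus, and lupanine is a quinolizidine alkaloid of the same seeds. The treated rats received 28 mg/kg Cγ with 20 mg/kg lupanine by mouth every day for 7 days. T2D control rats had the same diabetes model and are labelled untreated. By the paper's methods they received the saline vehicle by the same daily gavage for 7 days. All were male Wistar rats, 6 to 8 weeks old when obtained. Diabetes was induced in both groups by a high-fat diet and then a single low dose of streptozotocin, a toxin of pancreatic beta cells. Diet and toxin are thus shared by both sides, but the degree of disease was not equal. Before treatment, the paper gives higher mean serum glucose, triglycerides, total cholesterol and LDL cholesterol in the group to be treated. Mean ALT and AST were then higher in T2D control rats. These earlier differences and the treatment cannot be told apart here. Each array read a pool of liver RNA from 3 rats, with Cγ + lupanine pools 1 to 3, T2D control pools 4 to 6 and healthy control pools 7 to 9. Healthy levels are set beside the others as values only, but the healthy arrays share in the estimate of the spread behind every p with all 9 arrays. Healthy livers were lysed in a different reagent from T2D livers, so lysis reagent and disease cannot be told apart in any healthy level. The labels call the pools biological replicates, and the paper's methods use both that term and technical replicates. By those methods the 3 rats of a pool were different animals, 9 rats a group. The p-values below measure the spread between pools only. In these bulk samples, fewer cells of a type and less RNA per cell cannot be told apart.

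The liver responds to insulin lack with a fasting programme, in which glucagon, glucocorticoids and the factor FOXO1 switch on genes for glucose output and spare glucose by closing pyruvate dehydrogenase. Cell stress is read by kinases that converge on the factor ATF4, the integrated stress response, which raises amino acid transporters, amino acid enzymes and the hormones Gdf15 and Fgf21. The nuclear receptor CAR, known for its response to phenobarbital, raises cytochromes P450 of the 2b subfamily. Immediate early genes such as Jun rise within minutes of a signal, before any new protein is made.

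Before the results, 1 array needs to be set apart. T2D control pool 4 resembled the Cγ + lupanine pools about as closely as these resembled each other. Between pool 4 and Cγ + lupanine pools 1, 2 and 3, 20, 53 and 24 clusters with 1 symbol were over 2-fold apart, against 88 and 62 between pool 4 and T2D control pools 5 and 6. The 3 Cγ + lupanine pools differed from each other in 13 to 32 clusters, pools 5 and 6 in 27, and the Cγ + lupanine pools from pools 5 and 6 in 100 to 147. Results are therefore given with pool 4 in its labelled group, and values without it are added for the genes and lists that the text describes at length. Pool 4 was singled out by these same data. Leaving out the control pool most like the Cγ + lupanine pools tends to widen differences and narrow the control spread. Values and adjusted p without pool 4 are therefore descriptive only.

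**Figure D1:**
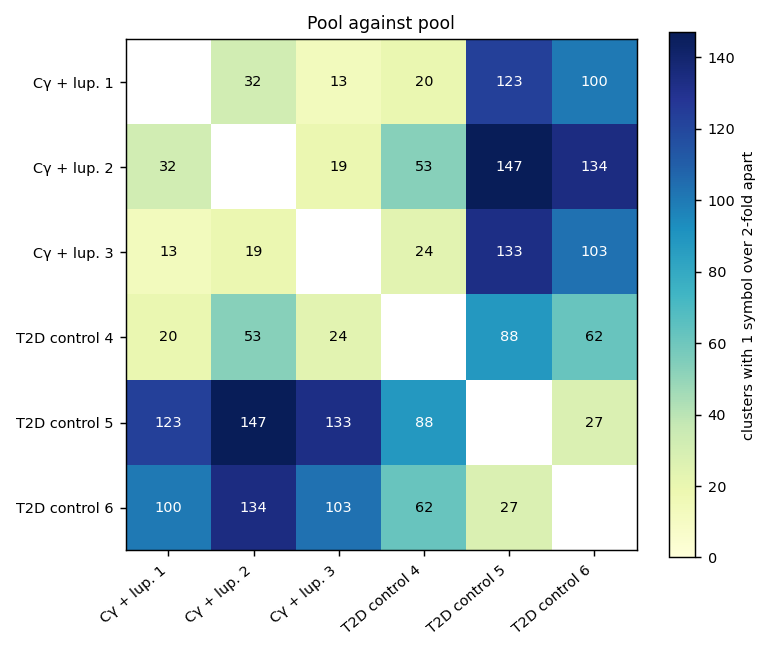
Each cell gives the number of transcript clusters with 1 gene symbol whose log2 signals were over 2-fold apart between 2 pools, for Cγ + lupanine pools 1 to 3 and T2D control pools 4 to 6. T2D control pool 4 was 20 to 53 clusters from the Cγ + lupanine pools, while pools 5 and 6 were 100 to 147 from them.

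The arrays were alike in overall signal, with a median log2 signal of 3.07 to 3.10 in Cγ + lupanine pools and 3.06 to 3.11 in T2D control pools. Between 61.7% and 62.3% of the clusters with 1 symbol lay under a log2 signal of 5 on these 6 arrays, close to background, where differences read as too small. In 9.39% of the clusters with 1 symbol the 3 Cγ + lupanine pools held 1 identical value, and in 10.3% the 3 T2D control pools did. The share was 1.56% in the healthy controls. Defining hepatocyte genes were bright in both groups, with albumin (Alb) at 12.61 in Cγ + lupanine pools and 12.68 in T2D control pools. The 18 hepatocyte markers measured had a median difference of -0.01.

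The study's rule asked for a difference of over 2-fold together with p under 0.05 before any adjustment. With limma on all 9 arrays, 41 clusters with 1 symbol (39 genes) met it. Of them 10 were higher in Cγ + lupanine livers and 31 were lower. Over all clusters of the array, 0.0436% met the same rule as higher and 0.2% as lower. After Benjamini-Hochberg adjustment over all clusters of the array, 46 of them (0.0668%) had an adjusted p under 0.05 in either direction. Among these were 3 clusters with 1 symbol, all 3 lower in Cγ + lupanine livers. Below, rose and fell are kept for such calls, and genes that met the study's rule alone are given by their values. Of the 22093 genes, each read by its brightest cluster, 2.46% were higher and 2.3% lower at an unadjusted p under 0.05, and their median difference was 0.00385. The 41 clusters held 32 whose pools did not overlap between groups, 7 higher and 25 lower. Across all clusters, the 3 Cγ + lupanine pools were above every T2D control pool in 5.27% and below every one in 8.99%.

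**Figure D2:**
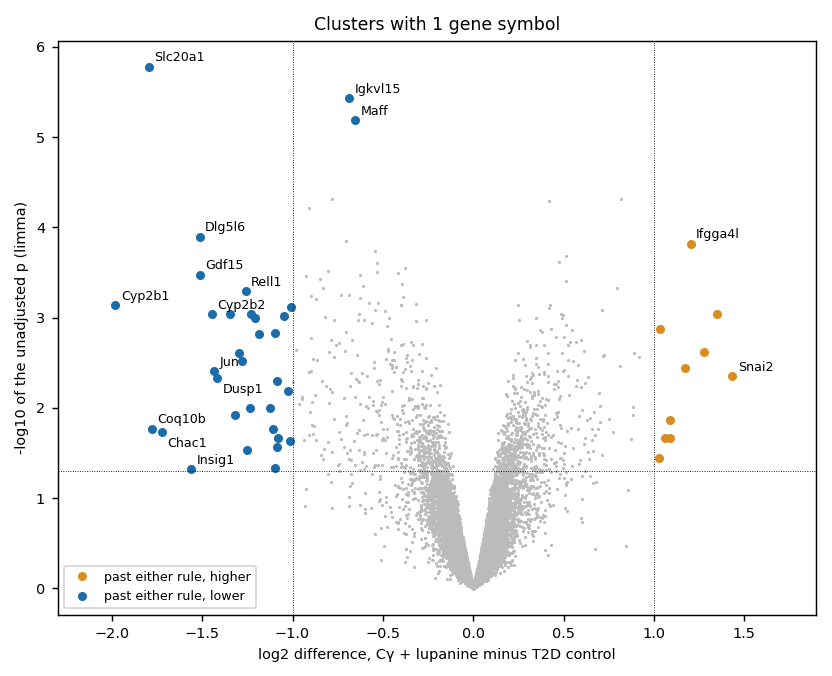
Each point is 1 of the 23446 transcript clusters with 1 gene symbol, by its log2 difference (Cγ + lupanine minus T2D control) and the -log10 of its unadjusted limma p. Dotted lines mark 2-fold differences and the p threshold. Coloured points are the 43 clusters past either rule, and the 33 lower ones reach further from 0 (Cyp2b1, -1.98) than the 10 higher ones (Snai2, 1.43).

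Without T2D control pool 4 the counts were larger. The study's rule was then met by 18 clusters with 1 symbol as higher and 73 as lower (0.121% and 0.314% of all clusters), and 38 of the 41 were still among them. An adjusted p under 0.05 was reached by 76 clusters with 1 symbol, of which 16 were higher and 60 lower. Over all clusters of the array, 170 (0.247%) reached it in either direction. The 3 genes called with all pools were among the 76, which is no independent check because pool 4 was chosen from these data. For 25 of the 41 clusters, 20 of the lower and 5 of the higher ones, pool 4 lay nearer to the Cγ + lupanine mean than to pools 5 and 6. Why pool 4 stands so was not tested.

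**Figure D3:**
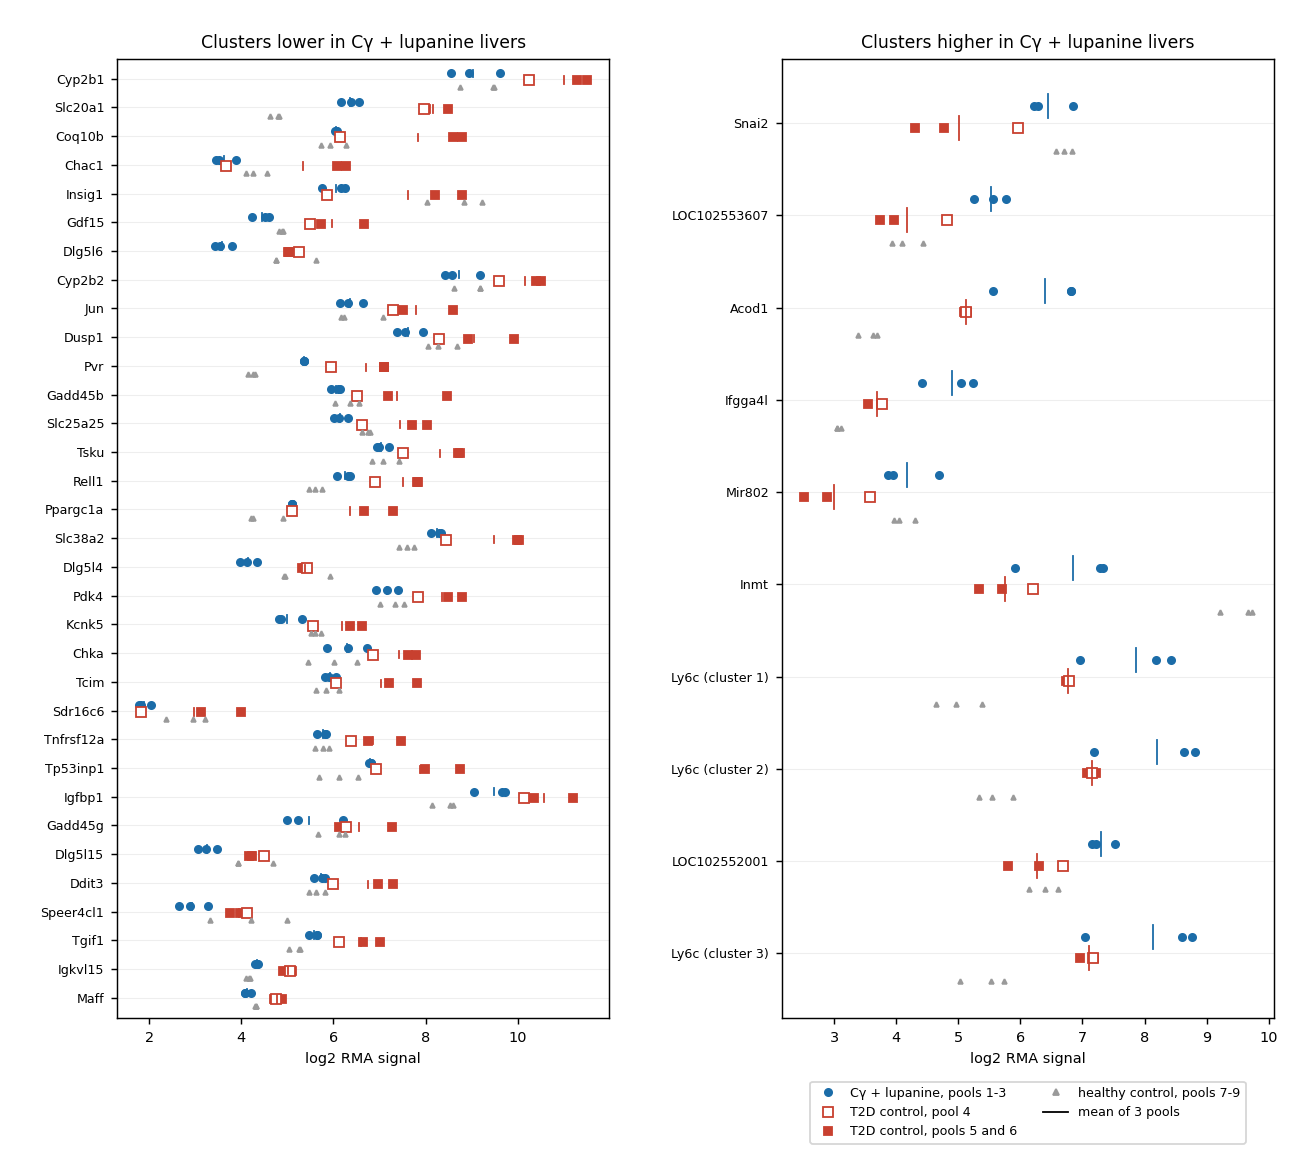
Log2 signal in every pool of the clusters past either rule, lower ones on the left and higher ones on the right, ordered by the difference except that Igkvl15 and Maff stand last among the lower ones. Blue circles are Cγ + lupanine pools, red squares T2D control pools (open, pool 4) and grey triangles healthy pools, and short lines are means of the 3 pools. The open square lies among or next to the blue circles for Coq10b, Chac1, Insig1, Ppargc1a and Slc38a2, and with the filled squares for Slc20a1 and the Dlg5l genes.

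The clearest difference was in Slc20a1, which encodes a sodium-dependent phosphate transporter (transcript cluster TC0300001693, on chromosome 3 of GRCr8). It gave 6.55, 6.16 and 6.37 in Cγ + lupanine livers, against 7.96, 8.49 and 8.01 in T2D control livers. All Cγ + lupanine pools were below all T2D control pools, pool 4 included, and all stayed above the healthy mean of 4.74 ± 0.11 (SD, 3 pools). Slc20a1 fell by 1.80 ± 0.15 on the log2 scale (SE), 3.47-fold, with an adjusted p of 0.0163 by limma. Without pool 4 the difference was -1.89 with an adjusted p of 0.0143. The call was lost when pool 3, 6, 7 or 8 was left out and with only the 6 arrays compared, and over all alternatives the adjusted p of Slc20a1 ran from 0.00325 to 0.136 with the difference between -1.89 and -1.63. The other 10 phosphate transporters and phosphate-linked carriers of the list ran from -0.25 to 0.46. Slc17a2, a carrier of the sodium and phosphate transporter class, was at 7.49 ± 0.04 in Cγ + lupanine livers and 7.03 ± 0.22 in T2D control livers, a difference of 0.46 with an adjusted p of 0.462.

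Maff, a small Maf transcription factor that pairs with stress factors of the basic leucine zipper class, fell by 0.65 ± 0.07 (SE; adjusted p = 0.0249). Its signals were 4.22, 4.09 and 4.07 in Cγ + lupanine livers, against 4.75, 4.88 and 4.70 in T2D control livers. Both groups lay under a log2 signal of 5 and did not overlap. Igkvl15, which was placed in the list of lymphocyte markers, fell by 0.69 ± 0.06 (SE; adjusted p = 0.0193). It gave 4.33, 4.30 and 4.37 in Cγ + lupanine livers, against 5.06, 4.91 and 5.10 in T2D control livers. A second cluster of Igkvl15 differed by -0.65 with an adjusted p of 0.534. Of the 20 lymphocyte markers measured, 17 were above the T2D control mean, by at most 0.26 (Gzma). The chromosome named in the cluster's identifier differs from that of the gene in RefSeq for Igkvl15, Cyp2b1 and Dlg5l15, 3 of 41 clusters with such an identifier, so that their identity rests on the platform's annotation. The adjusted p of Maff ran from 0.00409 to 0.165 over the alternatives and was above 0.05 without any one of pools 1, 2, 3, 5, 6, 7 and 8. That of Igkvl15 ran from 0.00325 to 0.136 and was above 0.05 without any one of pools 1, 2, 3, 6, 7 and 8. Both were above 0.05 with only the 6 arrays compared, and Maff also when p was adjusted over clusters with 1 symbol.

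Among clusters with 1 symbol and with all pools, the phenobarbital-type gene Cyp2b1 had the largest difference. The list of CAR and PXR targets, which also names these receptors themselves, had 22 measured genes. Of them 19 were lower in Cγ + lupanine livers, 8 of these at an unadjusted p under 0.05, and 1 was higher by that rule. The median was -0.21, or -0.22 without pool 4. Cyp2b1, a cytochrome P450 that oxidises drugs and steroids, gave 8.93, 8.56 and 9.60 in Cγ + lupanine livers, against 10.24, 11.50 and 11.30 in T2D control livers. The groups did not overlap, the Cγ + lupanine pools were close to the healthy mean of 9.23, and the difference was -1.98 ± 0.38 (SE), 3.95-fold, with an adjusted p of 0.189, or -2.37 with 0.0534 without pool 4. Its neighbour Cyp2b2, whose sequence is so alike that probes may read both, was at 8.72 ± 0.40 in Cγ + lupanine livers and 10.16 ± 0.50 in T2D control livers (SD). Alas1, the rate-limiting enzyme of haem synthesis, gave 10.60, 10.38 and 10.37 in Cγ + lupanine livers, against 10.68, 11.66 and 11.64 in T2D control livers. Pool 4 stood beside the Cγ + lupanine pools there, and the difference was -0.88 with all pools (adjusted p = 0.523) and -1.20 without pool 4 (adjusted p = 0.029).

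The remaining members of that list followed in smaller steps. Abcc3, an exporter of conjugates into blood, was at 5.92 in Cγ + lupanine livers and 6.62 in T2D control livers, a difference of -0.70 that kept its size without pool 4 (-0.64). Por, the electron donor of the cytochromes P450, differed by -0.59. The carboxylesterase Ces2c, which hydrolyses ester drugs, gave 9.15, 8.98 and 9.11 in Cγ + lupanine livers, against 9.31, 10.44 and 10.33 in T2D control livers on its brighter cluster. That is -0.95 with all pools and -1.31 without pool 4 (adjusted p = 0.0241). The Ces2 family was counted after its values were seen, so its count is no separate support. All 10 of its clusters (9 genes) lay below the T2D control mean. In 4 of them, which include both clusters of Ces2c, the groups did not overlap. The clusters that overlapped differed by only -0.29 to -0.03. In the other direction, the receptor CAR itself (Nr1i3) gave 8.30, 7.93 and 8.12 in Cγ + lupanine livers, against 8.16, 7.13 and 6.93 in T2D control livers. Its difference was 0.71 with all pools (adjusted p = 0.876) and 1.09 without pool 4 (adjusted p = 0.0372).

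The integrated stress response was lower as a group. Of its 33 listed genes, all measured, 29 were lower in Cγ + lupanine livers and 15 of them at an unadjusted p under 0.05, with 0 higher by that rule. The median was -0.21, and -0.31 without pool 4. Chac1, Gdf15, Slc38a2 and Ddit3 met the study's rule, and no member had an adjusted p under 0.05. To show what the group shares upstream of its start sites, the RefSeq promoters (250 bases before to 50 after each start, build GRCr8) were searched on both strands for the composite element of ATF4 and C/EBP, TTGCATCA. It was present for 7 of the 31 members with a promoter (22.6%), against 0.827% of all 27457 genes with one. The list was drawn up as genes that answer to ATF4, so this share is no independent evidence. The E-box CACGTG was present for 7 of the 31 as well (22.6%, against 7.08% of all) and the AP-1 site TGANTCA for 5 (16.1%, against 8.04%). The stretches that hold the ATF4 element TTGCATCA for 4 members described in this report are printed. The element is in capitals, with 20 bases on either side where the window allows.
Chac1 (chr3:126795944-126795991, plus strand, from -167): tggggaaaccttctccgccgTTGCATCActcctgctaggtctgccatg
Fgf21 (chr1:105221492-105221539, minus strand, from -143): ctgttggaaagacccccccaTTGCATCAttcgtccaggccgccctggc
Nupr1 (chr1:190645929-190645976, minus strand, from -55): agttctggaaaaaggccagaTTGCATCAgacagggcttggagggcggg
Slc1a4 (chr14:98761770-98761812, minus strand, from -235): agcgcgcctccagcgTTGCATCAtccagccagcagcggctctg

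Chac1, which degrades glutathione, gave 3.51, 3.45 and 3.89 in Cγ + lupanine livers, against 3.67, 6.08 and 6.26 in T2D control livers. Pool 4 lay inside the range of the Cγ + lupanine pools, far below pools 5 and 6. The difference was -1.72 ± 0.59 with all pools (adjusted p = 0.742) and -2.56 ± 0.17 without pool 4 (adjusted p = 0.00644, SE). Slc38a2, a transporter of neutral amino acids, gave 8.29, 8.12 and 8.33 in Cγ + lupanine livers, against 8.43, 9.98 and 10.02 in T2D control livers. Pool 4 lay just above the Cγ + lupanine pools, and the difference was -1.23 with all pools (adjusted p = 0.596) and -1.76 without pool 4 (adjusted p = 0.00504). Ddit3, which encodes the factor CHOP, was at 5.59, 5.82 and 5.75 in Cγ + lupanine livers, against 5.99, 6.97 and 7.28 in T2D control livers. All Cγ + lupanine pools were below all T2D control pools, and the difference was -1.02, or -1.40 without pool 4 (adjusted p = 0.0231).

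In Gdf15 and Asns pool 4 was also above every Cγ + lupanine pool. Gdf15, a circulating hormone of cell stress, gave 4.60, 4.50 and 4.24 in Cγ + lupanine livers, against 5.50, 6.66 and 5.72 in T2D control livers. No pool overlapped, and the difference of -1.51 ± 0.26 (SE), 2.86-fold, had an adjusted p of 0.132. Asns, which makes asparagine, was at 5.18, 5.27 and 5.21 in Cγ + lupanine livers and at 5.61, 5.65 and 5.53 in T2D control livers, so that pool 4 stood with its own group. Fgf21, a hormone of the fasted and stressed liver, had means of 5.05 in Cγ + lupanine livers and 5.50 in T2D control livers. Psat1, a serine synthesis enzyme, had means of 4.34 in Cγ + lupanine livers and 5.08 in T2D control livers, and its adjusted p was 0.296 with all pools and 0.0403 without pool 4. Nupr1, a stress-induced chromatin protein, gave 7.89, 7.89 and 7.99 in Cγ + lupanine livers, against 7.78, 8.61 and 8.23 in T2D control livers, and overlapped. The factor Atf4 itself differed by -0.24 and its target Atf3 by -0.91. The 19 chaperones and sensors of the unfolded protein response had a median of 0.03 with 1 gene lower at an unadjusted p under 0.05, Eif2ak3, the kinase PERK, which differed by -0.45.

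Immediate early genes were mostly lower too, and T2D control pool 5 weighed in this list. Relative to the mean of the 6 pools, the list median was -0.09 to -0.06 in Cγ + lupanine pools and 0.23 in T2D control pool 5. T2D control pools 4 and 6, at -0.002 and 0.01, lay nearer to the Cγ + lupanine pools than to pool 5. The lists share members, with Atf3 also in the stress list and Dusp1 and Errfi1 also among glucocorticoid targets, so their counts are not independent. Of 39 measured, 30 were lower in Cγ + lupanine livers, 13 of them at an unadjusted p under 0.05, and the median was -0.16, or -0.21 without pool 4. Jun, a subunit of AP-1, gave 6.64, 6.14 and 6.31 in Cγ + lupanine livers, against 7.28, 8.60 and 7.52 in T2D control livers. Dusp1, a phosphatase that shuts off MAP kinases, gave 7.55, 7.38 and 7.95 in Cγ + lupanine livers, against 8.29, 9.92 and 8.92 in T2D control livers. In both genes the groups did not overlap and pool 5 was the highest, and the differences of -1.43 and -1.42 had adjusted p of 0.399 and 0.438. Without pool 4 Jun differed by -1.69 and Dusp1 by -1.79. Myc, a growth factor-responsive transcription factor, was at 5.61, 5.80 and 5.80 in Cγ + lupanine livers, against 6.33, 6.92 and 6.50 in T2D control livers. It differed by -0.85 ± 0.15 (SE; adjusted p = 0.138), and by -0.97 without pool 4. Rhob, a small GTPase, and Klf6, a zinc finger factor, differed by -0.87 and -0.79, also without overlap.

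The DNA damage-inducible genes Gadd45b and Gadd45g, which act on stress kinases, met the study's rule. Gadd45b gave 6.14, 5.94 and 6.10 in Cγ + lupanine livers, against 6.51, 8.46 and 7.18 in T2D control livers. Its difference was -1.32 with all pools, -1.76 without pool 4 and -0.78 without pool 5. Gadd45g gave 4.98, 5.22 and 6.21 in Cγ + lupanine livers, against 6.28, 7.28 and 6.11 in T2D control livers, and there the groups overlapped. Gadd45a, the third of the family, differed by -0.54. Tp53inp1, a p53-induced gene linked to autophagy, was at 6.80 ± 0.02 in Cγ + lupanine livers and 7.89 ± 0.92 in T2D control livers (SD), with pool 4 at 6.92. Its difference was -1.09 with all pools, -1.57 without pool 4 and -0.65 without pool 5. The other p53 targets showed little, and the list of 16 had a median of -0.02.

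Of the 33 lower genes past either rule, 27 had a RefSeq promoter, and 4 of these (14.8%) held the cAMP response element TGACGTCA, against 2.0% of all genes with a promoter. The ATF4 element was found for 2 of the 27 (7.41%). The cAMP element is bound by CREB and by ATF factors in other settings. The 4 stretches are printed with the cAMP element in capitals. Searched likewise on both strands, the E-box CACGTG was found for 6 of the 27 (22.2%, against 7.08% of all), the AP-1 site TGANTCA for 1 (3.7%, against 8.04%) and the FOXO site GTAAACA for 1 (3.7%, against 4.13%). The lower-case bases of the Dusp1 stretch hold one of these E-boxes. The ROR and REV-ERB element AGGTCA was found for 2 of the 27 (7.41%, against 16.9% of all). The glucocorticoid, sterol, and CAR and PXR elements were found for 0 of the 27. These longer elements are rare, with 0.00728%, 0.117% and 0.0146% of all genes with a promoter, so their absence says little. A match is a description of the letters only.
Ppargc1a (chr14:63634107-63634154, plus strand, from -181): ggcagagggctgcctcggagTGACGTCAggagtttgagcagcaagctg
Slc25a25 (chr3:36116712-36116759, minus strand, from -158): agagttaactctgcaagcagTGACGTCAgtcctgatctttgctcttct
Dusp1 (chr10:17184709-17184756, plus strand, from -124): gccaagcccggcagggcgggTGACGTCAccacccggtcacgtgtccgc
Maff (chr7:112792716-112792763, plus strand, from -51): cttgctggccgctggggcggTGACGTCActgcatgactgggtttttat

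Glucocorticoid targets, part of the fasting programme, had the lowest median of all 36 lists. Of 21 glucocorticoid targets, 19 were lower, 10 of them at an unadjusted p under 0.05, and the median was -0.37, or -0.51 without pool 4. Pdk4, which blocks the pyruvate dehydrogenase complex, gave 7.16, 6.92 and 7.39 in Cγ + lupanine livers, against 7.83, 8.78 and 8.48 in T2D control livers. No pool overlapped, the Cγ + lupanine mean of 7.16 lay beside the healthy mean of 7.29, and the difference of -1.21 ± 0.25 (SE) had an adjusted p of 0.216, or 0.0429 without pool 4. The complex it blocks differed little, with Pdha1 at -0.23 and Pdhb at -0.15. Igfbp1, an insulin-repressed binding protein of IGF1, gave 9.72, 9.05 and 9.65 in Cγ + lupanine livers, against 10.15, 11.19 and 10.34 in T2D control livers. The difference was -1.09 (adjusted p = 0.449), and every Cγ + lupanine pool stayed above the healthy mean of 8.42.

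Ppargc1a, the coactivator PGC1α of gluconeogenesis and mitochondrial genes, held the value 5.10 in all 3 Cγ + lupanine pools and in T2D control pool 4, against 6.66 and 7.29 in T2D control pools 5 and 6. Identical values across arrays are a feature of the deposited table, and the spread of the Cγ + lupanine group is then 0. The difference was -1.25 ± 0.48 with all pools (adjusted p = 0.851) and -1.88 ± 0.24 without pool 4 (adjusted p = 0.0419, SE), and it was -0.78 without pool 6. Slc25a25, which carries ATP and magnesium into mitochondria, was at 6.12, 6.01 and 6.30 in Cγ + lupanine livers, against 6.61, 8.02 and 7.70 in T2D control livers. Its difference was -1.30 with all pools and -1.71 without pool 4 (adjusted p = 0.00812). Irs2, the main insulin receptor substrate of the liver in fasting, gave 5.99, 5.93 and 5.99 in Cγ + lupanine livers, against 6.00, 7.30 and 7.13 in T2D control livers. Pool 4 was level with the Cγ + lupanine pools there, and the difference of -0.84 had an adjusted p of 0.872, or -1.25 with 0.0982 without pool 4.

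The FOXO factors differed less, and the glucose-6-phosphatase system was not lower. Foxo1 was at 7.27 ± 0.17 in Cγ + lupanine livers and 7.51 ± 0.44 in T2D control livers (SD). Foxo3 was at 6.25 in all 3 Cγ + lupanine pools and in pool 4, against 6.57 and 6.53 in pools 5 and 6. The differences were -0.24 for Foxo1 and -0.20 for Foxo3 with all pools, and -0.49 and -0.30 without pool 4. Neither had an unadjusted p under 0.05 by limma in either fit. G6pc1, the catalytic subunit that releases glucose, gave 8.62, 8.47 and 8.47 in Cγ + lupanine livers, against 7.86, 8.47 and 6.66 in T2D control livers. T2D control pool 5 was level with the Cγ + lupanine pools and pool 6 far below them, the difference was 0.86 ± 0.43 (SE), and its adjusted p was 1. The transporter subunit Slc37a4 was slightly higher in every Cγ + lupanine pool, at 6.85 against 6.62 on average (adjusted p = 0.725). Over the 12 measured genes of gluconeogenesis and glucose export the median was 0.02, with 2 higher and 1 lower at an unadjusted p under 0.05. Tat, a glucocorticoid-induced enzyme of tyrosine breakdown, gave 10.83, 10.81 and 10.62 in Cγ + lupanine livers, against 10.71, 11.86 and 11.80 in T2D control livers, so that the difference of -0.70 became -1.07 without pool 4 (adjusted p = 0.0218). Angptl4, an inhibitor of lipoprotein lipase and the only glucocorticoid target that was higher at an unadjusted p under 0.05, was at 6.16, 6.12 and 6.21 in Cγ + lupanine livers, against 5.58, 5.24 and 5.02 in T2D control livers.

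In lipid metabolism the named genes did not move as 1 block. Insig1, which holds the sterol sensor SCAP in the endoplasmic reticulum, gave 6.25, 6.16 and 5.75 in Cγ + lupanine livers, against 5.86, 8.79 and 8.20 in T2D control livers. Pool 4 lay among the Cγ + lupanine pools, and the healthy mean of 8.69 was near pools 5 and 6. The difference of -1.56 ± 0.67 (SE) had an adjusted p of 0.964 with all pools, and it was -2.44 without pool 4 (adjusted p = 0.0604) and -0.97 without pool 5. Genes of cholesterol synthesis, which Insig1 restrains, were on the higher side, with 14 of 17 above the T2D control mean, 3 at an unadjusted p under 0.05 and a median of 0.14. Among them Ebp was at 7.52 in Cγ + lupanine livers and 7.26 in T2D control livers, and Msmo1 at 5.48 in Cγ + lupanine livers and 5.21 in T2D control livers, both far under the healthy means of 9.61 and 9.30. Mlxipl, the carbohydrate-sensing factor ChREBP, gave 7.95, 7.94 and 7.90 in Cγ + lupanine livers, against 7.59, 7.41 and 7.37 in T2D control livers, a difference of 0.47 without overlap (adjusted p = 0.449). Cyp7a1, the rate-limiting enzyme of bile acid synthesis, was at 10.72 in Cγ + lupanine livers and 11.40 in T2D control livers, a difference of -0.67 also without overlap (adjusted p = 0.41).

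Coq10b, a mitochondrial protein that binds coenzyme Q, showed how much 1 pool decided. It gave 6.08, 6.06 and 6.02 in Cγ + lupanine livers, against 6.13, 8.78 and 8.59 in T2D control livers. The difference of -1.78 ± 0.60 had an adjusted p of 0.721 with all pools, and -2.63 ± 0.15 an adjusted p of 0.00361 without pool 4 (SE). The other 12 genes of coenzyme Q synthesis and binding lay between -0.12 and 0.21, and Coq10a, its closest relative, was at 5.19 in Cγ + lupanine livers and 4.98 in T2D control livers.

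The other lower genes of the study's rule belonged to no list. Pvr, a cell adhesion receptor, held 5.37 in all 3 Cγ + lupanine pools, against 5.95, 7.11 and 7.09 in T2D control livers. Rell1, a membrane protein related to the TNF receptor RELT, gave 6.32, 6.09 and 6.36 in Cγ + lupanine livers, against 6.90, 7.84 and 7.81 in T2D control livers. Tsku, a protein secreted by hepatocytes, gave 7.19, 6.98 and 6.95 in Cγ + lupanine livers, against 7.51, 8.75 and 8.70 in T2D control livers. In all of them pool 4 lay between the Cγ + lupanine pools and pools 5 and 6, with no overlap between the groups, and the differences were -1.35, -1.26 and -1.28. The adjusted p with all pools were 0.209 for Pvr, 0.16 for Rell1 and 0.35 for Tsku. Without pool 4 they were 0.000476 for Pvr, whose Cγ + lupanine group has a spread of 0, 0.00751 for Rell1 and 0.0227 for Tsku. The potassium channel gene Kcnk5 (-1.19), the choline kinase gene Chka (-1.13), the receptor gene Tnfrsf12a (-1.10) and the repressor gene Tgif1 (-1.01) were below T2D control in every pool. Kcnk5 had an adjusted p of 0.263 with all pools and 0.029 without pool 4, and Chka differed by -1.41 without pool 4. Tcim (-1.11) and Sdr16c6 (-1.10) overlapped with pool 4. Tcim differed by -1.59 without pool 4 and by -0.71 without pool 5, and Sdr16c6 by -1.68 without pool 4 and by -0.60 without pool 6. A second, dimmer cluster of Tcim differed by -0.94 with all pools. Sdr16c6 lay at 1.88 in Cγ + lupanine livers and 2.98 in T2D control livers, near background in both.

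Higher genes were fewer. Snai2, a zinc finger repressor that the list of immediate early genes holds although it is better known from cell migration, gave 6.28, 6.84 and 6.21 in Cγ + lupanine livers, against 5.95, 4.77 and 4.30 in T2D control livers. The groups did not overlap, the Cγ + lupanine pools were near the healthy mean of 6.70, and the difference of 1.43 ± 0.37 had an adjusted p of 0.421, against 1.91 ± 0.22 and 0.0311 without pool 4 (SE). Inmt, which methylates indole amines, gave 7.34, 5.91 and 7.28 in Cγ + lupanine livers, against 6.21, 5.71 and 5.33 in T2D control livers. Pool 2 was below pool 4 there, and the healthy mean of 9.53 was above every T2D pool. The uncharacterised transcripts LOC102553607 and LOC102552001, also named after their values were seen, were higher by 1.35 and 1.04 without overlap.

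The microRNA gene Mir802, named here after its values were seen, was the only microRNA among the 41 clusters. It gave 3.95, 4.69 and 3.86 in Cγ + lupanine livers, against 3.58, 2.88 and 2.51 in T2D control livers, with a healthy mean of 4.11. The groups did not overlap, both lay under a log2 signal of 5, and the difference of 1.17 ± 0.29 (SE) had an adjusted p of 0.381. The array probes read the primary transcript or the hairpin, and the level of the mature microRNA is not known from them. The hairpin is printed as RefSeq gives it (GRCr8, chr11:46112362-46112457, plus strand, 96 bases) to identify the transcript.
Mir802: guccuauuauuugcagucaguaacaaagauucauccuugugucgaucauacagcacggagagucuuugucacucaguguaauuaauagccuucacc

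Genes of inflammation and interferon response made up most of the remaining higher genes. Acod1, which makes itaconate in activated macrophages, gave 5.56, 6.81 and 6.82 in Cγ + lupanine livers, against 5.13, 5.09 and 5.14 in T2D control livers. Every Cγ + lupanine pool was above every T2D control pool, pool 1 by the least, and the difference of 1.28 ± 0.30 (SE) had an adjusted p of 0.327. Ly6c, a surface antigen of monocytes and lymphocytes, was read by 4 clusters, and on the brightest it gave 7.18, 8.81 and 8.63 in Cγ + lupanine livers, against 7.15, 7.22 and 7.07 in T2D control livers. Pool 1 was level with the T2D control pools, and the 4 clusters differed by 0.87 to 1.09. Without pool 1 one of them (1.03 with all pools) differed by 1.58. Ifgga4l, of the interferon-inducible GTPases, gave 5.04, 4.41 and 5.24 in Cγ + lupanine livers, against 3.77, 3.55 and 3.76 in T2D control livers. That difference of 1.20 ± 0.19 (SE; adjusted p = 0.0906) was 1.24 without pool 4.

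The guanylate-binding proteins, GTPases of cell-autonomous immunity, were looked at as a family after their values were seen. All 7 of these genes had a higher mean in Cγ + lupanine livers, 6 of them without overlap. Gbp2 gave 8.46, 8.77 and 8.73 in Cγ + lupanine livers, against 7.81, 7.84 and 7.84 in T2D control livers, and the healthy mean was 6.06. Its difference of 0.82 ± 0.11 (SE) had an adjusted p of 0.0648 with all pools and 0.0786 without pool 4. The other members lay from 0.05 (Gbp3, near background) to 0.52 (Gbp7), and related sequences may share probes.

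As lists, these groups were less even, and Cγ + lupanine pool 2 weighed in them. Of 28 inflammatory genes 19 were above the T2D control mean, 6 of them at an unadjusted p under 0.05 and 0 lower by that rule, with a median of 0.18. Tnf, a macrophage cytokine, was at 4.80, 5.29 and 4.56 in Cγ + lupanine livers, against 4.34, 4.06 and 4.09 in T2D control livers. A second, dimmer cluster of Tnf differed by 0.71. Of 29 interferon response genes 16 were above the T2D control mean and 9 higher at an unadjusted p under 0.05, with a median of 0.05, and T2D control pool 5 stood above Cγ + lupanine pools 1 and 3 in this list. All 29 cell cycle genes were above the T2D control mean, 3 of them at an unadjusted p under 0.05, with a median of 0.18, and 25 of them lay under a mean log2 signal of 5. Without Cγ + lupanine pool 2 the medians were 0.06 for the inflammatory list, -0.06 for the interferon list and 0.05 for the cell cycle list, which 27 of 29 genes then held above 0.

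Markers of neutrophils and monocytes moved in the same direction. Of 16 measured, 13 were above the T2D control mean, 6 of them at an unadjusted p under 0.05 and 0 below by that rule, with a median of 0.23, or 0.12 without Cγ + lupanine pool 2. The median marker level ran from 4.06 to 4.40 in Cγ + lupanine pools and from 3.93 to 4.05 in T2D control pools. Evi2b, a myeloid membrane protein, gave 6.93, 7.02 and 7.06 in Cγ + lupanine livers, against 6.93, 6.00 and 5.83 in T2D control livers, and its adjusted p was 0.656 with all pools and 0.0077 without pool 4. The granule genes that define neutrophils, Mpo, Elane, Camp, Ngp and S100a8, lay under a log2 signal of 5 in both groups and differed by -0.06 to 0.02. The part of these cells in the inflammatory and interferon differences was not tested.

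Other cell types differed less. The 21 Kupffer cell and macrophage markers had a median of 0.02, or 0.12 without pool 4, and 14 of them were above the T2D control mean. Clec4f, which defines Kupffer cells, went the other way, at 8.78 in Cγ + lupanine livers and 9.11 in T2D control livers. The 16 markers of sinusoidal endothelium had a median of -0.0021 with 0 of 16 genes past an unadjusted p of 0.05 in either direction. The 20 stellate cell and fibrosis markers had a median of -0.01, with 9 above the T2D control mean and 11 below. The median was 0.04 without T2D control pool 4, and 0.05 and -0.09 without Cγ + lupanine pools 2 and 1. At that p 3 of the 20 were lower and 0 higher. Among the 3 was Acta2, the smooth muscle actin of activated stellate cells, at 6.29 ± 0.17 in Cγ + lupanine livers and 6.82 ± 0.38 in T2D control livers (SD). All 8 erythroid and blood markers were below the T2D control mean, with differences of -0.14 to -0.02 and 0 of them at an unadjusted p under 0.05.

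**Figure D4:**
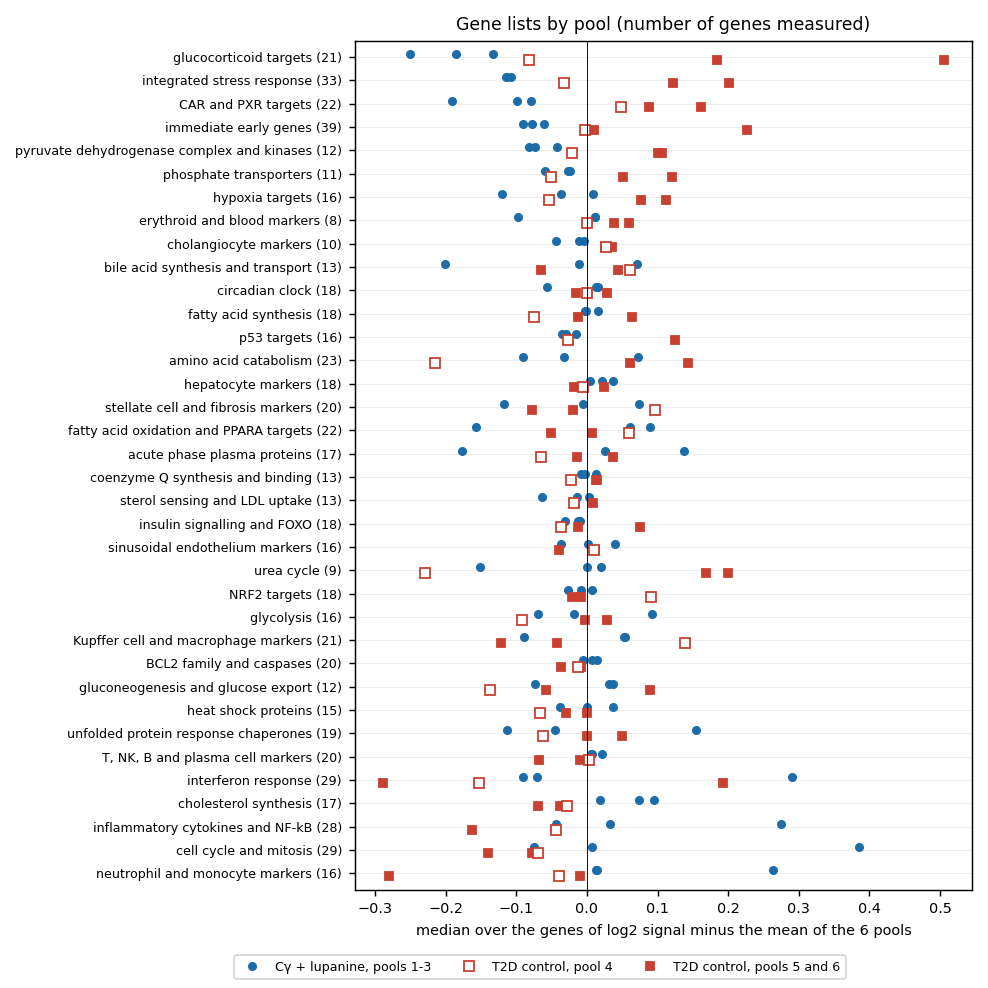
For each of the 36 gene lists, the median over its genes of the log2 signal in a pool minus the mean of the 6 pools, with Cγ + lupanine pools as blue circles and T2D control pools as red squares (open, pool 4). The lists run by the median difference, from glucocorticoid targets (-0.37) to neutrophil and monocyte markers (0.23), and in the cell cycle list Cγ + lupanine pool 2 stands apart at 0.39.

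Among the other lists, 9 of 12 genes of the pyruvate dehydrogenase complex and its kinases were below the T2D control mean, 3 of them at an unadjusted p under 0.05, with a median of -0.11, or -0.15 without pool 4. Of 16 hypoxia targets 11 were below, 2 of them at that p, with a median of -0.08, or -0.14 without pool 4. Egln3, an oxygen-sensing prolyl hydroxylase, gave 5.69, 5.51 and 5.58 in Cγ + lupanine livers, against 6.03, 6.68 and 6.21 in T2D control livers. Glycolysis, heat shock proteins, NRF2 targets, acute phase plasma proteins, fatty acid synthesis, fatty acid oxidation and amino acid catabolism had medians between -0.03 and 0.02. In glycolysis Hk3, a hexokinase of myeloid cells, was at 6.27 in Cγ + lupanine livers and 5.76 in T2D control livers. Among the 18 clock genes 9 were above and 9 below, and Bhlhe40 and Per1, both also hormone-responsive, differed by -0.68 and -0.52. The urea cycle and amino acid catabolism lists turned on pool 4. The 23 genes of amino acid catabolism had a median of -0.01 with 1 lower at an unadjusted p under 0.05 with all pools, and of -0.09 with 7 lower without pool 4. The 9 genes of the urea cycle had a median of 0.0021 with all pools and -0.21 without pool 4, and Slc25a15, the mitochondrial ornithine carrier, gave 9.11, 9.01 and 9.08 in Cγ + lupanine livers, against 8.94, 10.03 and 9.76 in T2D control livers.

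A few further genes among the 76 clusters with an adjusted p under 0.05 without pool 4 are given as examples. Got1, the cytosolic aspartate aminotransferase, gave 6.63, 6.51 and 6.52 in Cγ + lupanine livers, against 5.95, 8.11 and 8.39 in T2D control livers. Pool 4 lay below the Cγ + lupanine pools there, and the difference was -0.93 with all pools and -1.69 without pool 4 (adjusted p = 0.0107). Slc1a4, a transporter of alanine and serine whose promoter stretch is printed with the stress genes, gave 4.70, 4.68 and 4.70 in Cγ + lupanine livers, against 4.70, 5.88 and 6.11 in T2D control livers. Cd274, the checkpoint ligand PD-L1, was among the higher ones. It gave 6.12, 6.27 and 6.06 in Cγ + lupanine livers, against 5.65, 5.29 and 5.13 in T2D control livers. The groups did not overlap, and the difference was 0.79. Over all genes, 3.19% were higher and 3.49% lower at an unadjusted p under 0.05 without pool 4. Of the integrated stress response list 18 of 33 genes were lower by that rule, and of the glucocorticoid targets 15 of 21.

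A last group stood with its own label in every pool. The Dlg5-like genes and the Speer4-like genes, rodent families of near-identical copies, were looked at after their values were seen. All 7 Dlg5-like clusters lay below all T2D control pools in each Cγ + lupanine pool, with a median of -0.98, or -0.93 without pool 4. Dlg5l6 gave 3.53, 3.80 and 3.43 in Cγ + lupanine livers, against 5.26, 5.04 and 5.00 in T2D control livers, a difference of -1.51 ± 0.23 (SE; adjusted p = 0.0849). Dlg5l4 and Dlg5l15 met the study's rule too, at -1.23 and -1.04. Of the 7 Speer4-like clusters 6 did not overlap, their median was -0.48, and Speer4cl1 (-1.02) met the study's rule. All 14 clusters had a mean log2 signal under 5, and probes that match several copies may count the same RNA more than once, so that these values are uncertain as to gene.

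**Figure D5:**
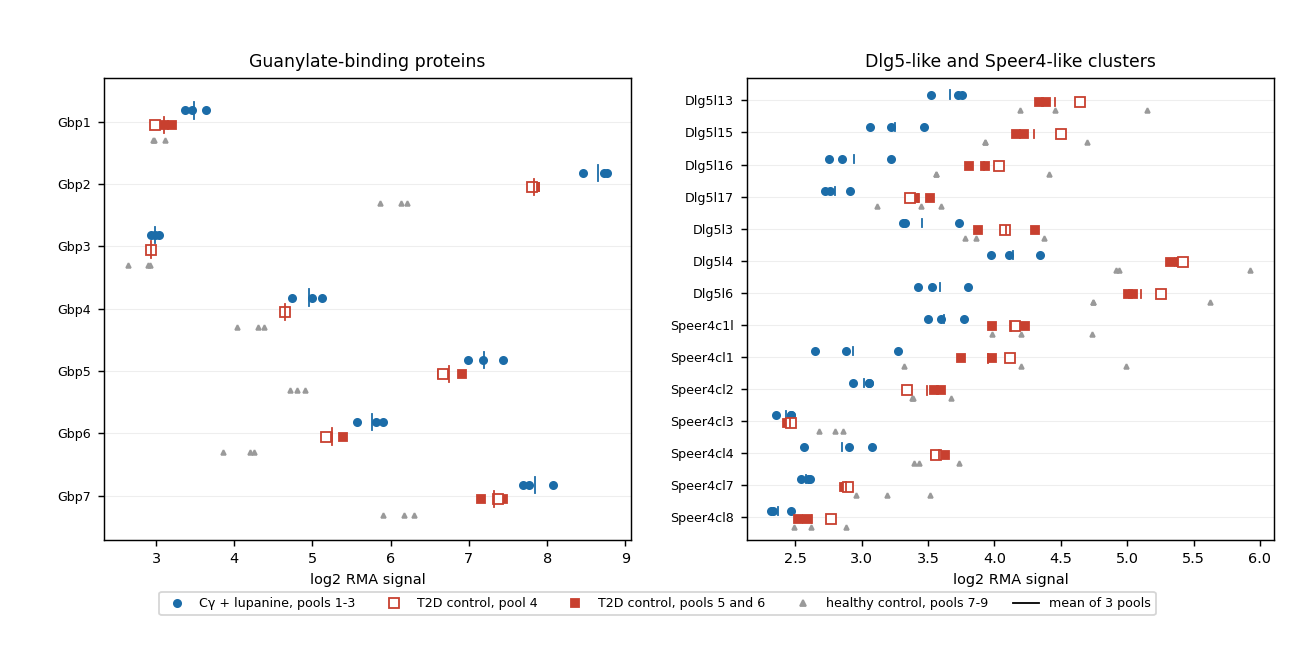
Log2 signal in every pool of the guanylate-binding protein genes (left) and of the Dlg5-like and Speer4-like clusters (right), with Cγ + lupanine pools as blue circles, T2D control pools as red squares (open, pool 4), healthy pools as grey triangles and means of 3 pools as short lines. Gbp2 is the brightest Gbp gene, at 8.46 to 8.77 in Cγ + lupanine pools and 7.81 to 7.84 in T2D control pools, and the 14 clusters on the right lie under 6 in every pool.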

How the data were processed

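The authors deposited log2 signals of 9 arrays (rat transcriptome array, Transcriptome Analysis Console 4.0.2, RMA), and these values were used as deposited, with 0 per-sample columns unused. Groups were taken from the sample titles, because the treatment text in the labels is the same for all samples. Control probe sets (1738 of 70580 entries) were not tested. Of 68842 clusters, 505 have several symbols and 44891 have none. Where a gene had several clusters (1182 genes), the brightest stood for it in lists, and further clusters are given for some of the genes named. Symbols came from the platform annotation and RefSeq. Differences were fitted with limma 3.58.1 (lmFit and eBayes, R 4.3.3) on all 9 arrays, with Benjamini-Hochberg adjustment over all 68842 clusters, and the code was tested on simulated data. Named genes were those past the study's rule or an adjusted p under 0.05 (38 genes after leaving out 3 clusters by symbol), the genes the study singles out, and members of 36 lists (631 of 672 genes measured). Members and lists were chosen with earlier results of these data known. The number of arrays limits precision. Alternatives changed the samples, averaging, normalization, signal filter, eBayes options, array weights and adjustment, or left out each pool. Figures and sequences used Python 3.11.15, pandas 2.3.3 and matplotlib 3.10.9.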

Additional observations from a re-analysis of the deposited data

Results flagged for a closer look

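Transcript clusters with no single gene symbol lay outside the comparison. Of 45396 such clusters tested in the same limma fit, 43 had an adjusted p under 0.05, with 2 higher and 41 lower in Cγ + lupanine livers, and 31 of the 43 had a Cγ + lupanine mean log2 signal under 3. They were drawn out because they show a difference in data that the comparison of named genes does not use.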

How the results depend on the processing

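Clusters with 1 symbol past the study's rule numbered 10 higher and 31 lower with all pools. Leaving out 1 pool gave 5 to 18 higher and 16 to 73 lower, with the extremes without pools 2 and 6 (5 higher each), pool 4 (18 and 73) and pool 5 (16 lower), and 6 were higher without pool 3. The count at an adjusted p under 0.05 was less steady. It was 3 with all pools, 0 with only the 6 arrays compared, 1 when dim clusters (mean under 5) were dropped, 109 with array weights (43 of them higher), and 0 to 76 with 1 pool left out. It was 0 without pools 3, 6, 7 and 8, 14 without pool 9 and 76 without pool 4. Leaving out clusters of identical values, chosen after seeing the data, gave 8. The cause of these shifts was not tested. For the clusters past either rule and the genes the study singles out, 868 values were taken under alternatives. Of these, 0 reversed, 815 stayed on their side of the adjusted threshold, 21 lost it and 32 gained it. Only Slc20a1, Maff and Igkvl15 could lose it. Several alternatives, such as leaving out a healthy pool, cannot change a difference, and the one in averaging kept the main adjusted p. Such values could not have reversed or been lost, respectively. Of 648 list medians 33 moved by more than the spread between pools, and scalings moved the median of all genes by less than 0.1. No paired analysis was possible because the pools of the groups share no numbers. With 61.7% to 62.3% of clusters under a log2 signal of 5, differences of dim genes are limited by background.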
